A study of Mus musculus with 38 samples.

Results

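The BCL2 family decides whether the outer membrane of the mitochondrion stays intact. Bax and Bak1 encode the effectors that perforate it, Bcl2, Bcl2l1 (BCL-XL), Mcl1 and the A1 genes encode guardians that hold the effectors and their activators, and Bcl2l11 (BIM) and Pmaip1 (NOXA) encode BH3-only proteins that bind the guardians and free the effectors. NOXA is known to bind MCL1 and A1, and BIM binds all of the guardians. In macrophages, A1 and Bcl2l1 are known NF-κB targets of inflammatory signals. The 10 genes described here were taken by their symbols (Bcl2, Bcl2l1, Bcl2l11, Mcl1, Bcl2a1a, Bcl2a1b, Bcl2a1d, Bax, Bak1 and Pmaip1) from 11184 genes in the RNA table. All 10 were among the 9942 genes that reached 1 RPKM in at least 4 libraries and were tested. Bcl2 reached 1 RPKM in exactly 4 libraries, of which 3 were at 24 h and 1 was with lactic acid at 24 h, so it entered the tests only through its level at 24 h; with no filter on low values its calls were the same.

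The cells were primary bone marrow-derived macrophages of C57BL/6 mice, which all groups share. RNA was measured after LPS at 5 ng/ml with IFNg at 12 ng/ml, a pair of signals that drives macrophages to the inflammatory M1 state. Without lactic acid (LA) there were 5 groups, unstimulated cells (0 h) and cells stimulated for 4, 8, 16 or 24 h. LA was added 4 h after LPS/IFNg in 3 further groups, collected at 8, 16 or 24 h. Each of the 8 groups had 4 libraries. Times of the LA groups are read as hours after LPS/IFNg, and no LA dose is given in the labels. Chromatin was mapped in M1 cells, stimulated for 24 h at the same LPS and IFNg doses, and in unstimulated M0 cells. Each state had 1 library for each of H3K18la and H3K18ac, the lactylated and acetylated forms of the same lysine of histone H3. The labels do not say whether libraries came from separate mice or cultures, so p-values reflect only how far these libraries differ within a group, which may be technical.

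From 60.3 to 103 M reads (M, mega) per library fell in the listed genes, as estimated from the RPKM steps. All 9 macrophage markers checked were listed, with a summed level between 10729 and 54164 RPKM per library, and the summed level of the listed neutrophil markers (3 of 8: Camp, Ngp and Ltf) was 7.96 to 10.9 RPKM at 4 h and 7.69 to 9.13 RPKM at 8 h (6.199 to 8.46 RPKM with LA at 8 h), against 1.68 to 3.20 RPKM at 0 h; the 5 others (Ly6g, Elane, Mpo, Retnlg and Prtn3) were not listed, and the part of this change in the 4 h and 8 h results was not tested. Lyz2 made up most of the macrophage sum in every library, so that sum mostly follows 1 gene. The dendritic (2 of 6), lymphocyte (1 of 8), and stromal and endothelial (5 of 6) lists each summed to under 4 RPKM in every library, and the 6 markers of erythroid and mast cells were not among the listed genes. Libraries differed in how level depended on gene length. The slope on gene length was -0.21 log2 units per doubling in 24 h replicate 4 and -0.22 in LA 24 h replicate 1, and these 2 libraries stood apart from their groups, whose other slopes ran from -0.14 to -0.0022. It was 0.13 to 0.16 in the 4 LA 8 h libraries, against -0.080 to -0.0034 in the 4 libraries at 8 h. The 0 h libraries had slopes of 0.098 to 0.15, against -0.020 to 0.018 at 4 h, so comparisons over 0 h are touched as well. These slopes bear on the A1 genes and Bax, whose lengths implied by the table are 817 to 869 bases. They also bear on the longest members, Bcl2 (9114 bases) and Bcl2l11 (8033 bases). Values with each library's length trend removed are therefore given where they change a call. In bulk RNA, fewer cells of a type and less RNA per cell cannot be told apart.

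At 4 h the A1 genes had the largest changes of the 10 genes. A1 is a short-lived guardian, and mice carry near-identical copies of its gene on chromosome 9, so reads may be divided among the copies in ways that the deposited table does not resolve. The promoter windows, from 250 bases before to 50 bases after the annotated start, are shown because the 3 copies changed together. They were taken from RefSeq (GRCm38.p6) at chr9:88956670-88956969 on the plus strand for Bcl2a1a, chr9:89199023-89199322 on the plus strand for Bcl2a1b and chr9:88731801-88732100 on the minus strand for Bcl2a1d. Capitals mark bases that differ from, or have no partner in, another copy within the stretches aligned in pairs. Window ends that lie outside the alignment of a pair are not marked for that pair.
Bcl2a1a: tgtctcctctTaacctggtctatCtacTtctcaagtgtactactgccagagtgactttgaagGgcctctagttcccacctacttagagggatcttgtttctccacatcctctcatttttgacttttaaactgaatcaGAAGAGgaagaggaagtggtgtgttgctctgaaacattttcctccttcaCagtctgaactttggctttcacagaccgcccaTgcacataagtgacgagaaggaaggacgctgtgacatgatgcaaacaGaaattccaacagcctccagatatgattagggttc
Bcl2a1b: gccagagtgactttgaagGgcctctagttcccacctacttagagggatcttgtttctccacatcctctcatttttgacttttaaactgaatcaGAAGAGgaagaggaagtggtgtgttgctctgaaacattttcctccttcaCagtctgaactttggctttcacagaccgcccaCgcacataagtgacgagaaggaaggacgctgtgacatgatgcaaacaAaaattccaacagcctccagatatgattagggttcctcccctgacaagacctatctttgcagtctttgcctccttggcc
Bcl2a1d: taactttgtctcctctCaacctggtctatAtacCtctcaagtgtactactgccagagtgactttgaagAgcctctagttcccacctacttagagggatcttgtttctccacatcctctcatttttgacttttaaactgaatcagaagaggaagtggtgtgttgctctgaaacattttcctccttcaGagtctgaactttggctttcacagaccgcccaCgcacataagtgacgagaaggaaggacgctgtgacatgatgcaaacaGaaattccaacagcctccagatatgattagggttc
The Bcl2a1a and Bcl2a1b windows were identical at 254 of 256 aligned positions (99.2%), Bcl2a1a and Bcl2a1d at 288 of 300 (96.0%), and Bcl2a1b and Bcl2a1d at 247 of 256 (96.5%). The annotated start of Bcl2a1b lies 44 bases farther downstream in the shared sequence than that of Bcl2a1a. A kB-type motif, GGANTTNCC, and a GAS-type motif, TTCNNNGAA, were searched on both strands. Neither was found in these 3 windows, and they occur in 3.95% and 8.30% of the 32851 promoter windows of the table; overlaps between motifs were allowed.

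Bcl2a1d stood at 151, 173, 161 and 161 RPKM in the 4 h libraries, against 5.70, 5.97, 8.26 and 7.33 RPKM at 0 h. Bcl2a1a stood at 18.1, 22.0, 19.1 and 19.04 RPKM at 4 h, against 0.228, 0.148, 0.249 and 0.132 RPKM at 0 h, where each value rests on about 9 to 19 reads. Bcl2a1b had 181, 192, 183 and 193 RPKM at 4 h, against 48.0, 47.2, 49.04 and 46.5 RPKM at 0 h. It had the highest RNA level of the 3 copies before stimulation. For every copy the lowest 4 h library was above the highest 0 h library; the 2 groups did not overlap for all 10 genes, nor for 85.2% of all genes tested. The mean RPKM at 4 h was 23.7 times that at 0 h for Bcl2a1d, 103 times for Bcl2a1a and 3.92 times for Bcl2a1b. On the log2(RPKM + 1) scale, on which folds of low genes are understated, the 3 rose by 4.39 (SE 0.11, limma adjusted p = 3.61e-26), 4.11 (SE 0.14, adjusted p = 2.05e-22) and 1.95 (SE 0.11, adjusted p = 4.34e-17). The authors' deposited table gives log2 fold changes of 4.57, 6.66 and 1.97 for the same genes. The adjusted p-values here and below are Benjamini-Hochberg values of limma over all 9942 genes tested.

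The 3 copies were lower again at 24 h than at 4 h, without returning together to the 0 h level. At 24 h Bcl2a1d had 18.5, 18.8, 15.1 and 26.3 RPKM, Bcl2a1a 3.28, 3.48, 2.99 and 5.36 RPKM, and Bcl2a1b 62.1, 67.9, 58.1 and 102 RPKM; the last value of each is from replicate 4, the library with the steep length slope. Over 0 h, log2 fold changes at 24 h were 1.39 (SE 0.11), 1.98 (SE 0.14) and 0.56 (SE 0.11), and all 3 passed limma's test (adjusted p = 1.08e-12, 1.01e-13 and 2.66e-05). The 24 h rise of Bcl2a1b had a log2 fold change of 0.01 with the length trend removed (adjusted p = 0.946), and 0.38 without 24 h replicate 4 and LA 24 h replicate 1. At 16 h Bcl2a1b had 39.2 to 46.0 RPKM, below every 0 h library, but the log2 difference of -0.19 did not pass (adjusted p = 0.116). Set against 4 h, the 24 h levels fell by 3.002, 2.12 and 1.39 log2 units for Bcl2a1d, Bcl2a1a and Bcl2a1b.

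The makeup of the summed RNA of these 3 copies shifted as well, as far as reads can be assigned to near-identical copies. A further copy, Bcl2a1c, is not in the sum. Bcl2a1b made up 50.8% ± 1.00 of the summed RPKM of the 3 copies at 4 h, against 87.2% ± 1.83 at 0 h (SD, n = 4 each), and Bcl2a1d made up 43.9% ± 0.772 at 4 h, against 12.4% ± 1.83 at 0 h. The share of Bcl2a1b was 47.6% ± 0.331 at 8 h, 66.4% ± 1.24 at 16 h and 75.5% ± 1.05 at 24 h. Bcl2a1a stayed the least abundant of the 3 copies throughout, with at most 8.58% ± 0.261 of the sum, at 8 h.

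**Figure D1:**
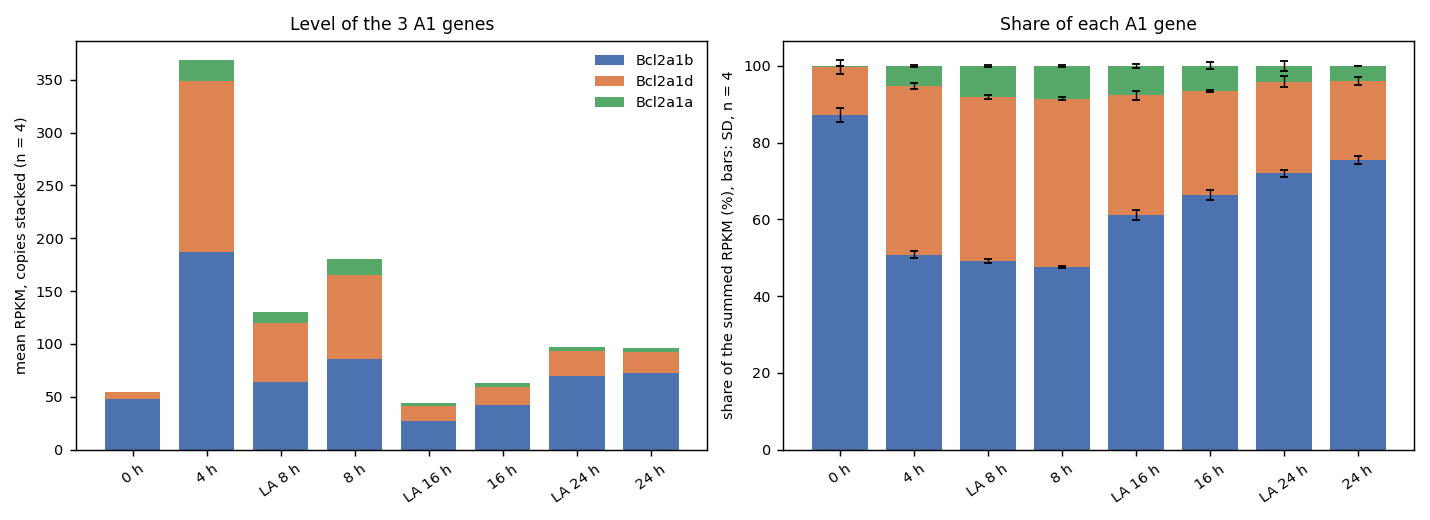
Mean RPKM of the A1 genes stacked (left) and the share of each gene in their summed RPKM (right, percent, bars SD, n = 4) in the 8 RNA groups. The summed level peaked at 4 h, and Bcl2a1b made up 87.2% of it at 0 h but 47.6% at 8 h.

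Mcl1 and Bcl2l1, the other well expressed guardians, rose less but kept a higher level. Mcl1 encodes a guardian with a very short half-life and had the highest or second highest level of the 10 genes in every group. It had 258, 289.5, 285 and 279 RPKM at 4 h, against 164, 168, 188 and 173 RPKM at 0 h, and 327, 331, 319 and 378 RPKM at 24 h. All 4 h and 24 h libraries were above all 0 h libraries. The rise over 0 h was 0.68 log2 units at 4 h (SE 0.06, adjusted p = 8.27e-13), 0.83 at 8 h and 0.96 at 24 h (SE 0.06, adjusted p = 3.54e-16). At 16 h, with 199 to 208 RPKM, it was 0.24 on the deposited scale (adjusted p = 0.000322), and -0.15 when libraries were scaled to reads in listed genes. That scaling moved the median of all genes tested over 0 h by -0.43 log2 units (4 h), -0.40 (8 h), -0.30 (16 h) and -0.37 (24 h), and by -0.15 for LA 24 h over 24 h.

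Bcl2l1 encodes BCL-XL. It had 43.1, 40.2, 42.4 and 42.1 RPKM at 4 h and 57.3, 48.0, 50.9 and 64.3 RPKM at 24 h, against 29.1, 23.9, 21.9 and 20.4 RPKM at 0 h. It was higher at each time, by 0.80 log2 units over 0 h at 4 h (SE 0.08, adjusted p = 6.72e-11), by 0.85 at 8 h, by 1.21 at 16 h and by 1.18 at 24 h (SE 0.08, adjusted p = 1.56e-14), and the 24 h level was 0.38 above the 4 h level (adjusted p = 6.08e-05). No 0 h library overlapped a library of the later groups.

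Bcl2, the founding guardian of the family, was scarce here and moved the other way at first. It had 0.215, 0.227, 0.272 and 0.257 RPKM at 4 h, against 0.891, 0.751, 0.591 and 0.555 RPKM at 0 h, and 1.14, 1.08, 1.23 and 0.734 RPKM at 24 h. The 4 h values lie below every 0 h value, while the 24 h values overlap with them. It fell by 0.45 log2 units at 4 h (SE 0.06, limma adjusted p = 5.99e-08) and by 0.42 at 8 h, and rose by 0.27 at 24 h (adjusted p = 0.000206); with a pseudocount of 0.1 RPKM in place of 1 the 4 h change was -1.20. In the authors' deposited table the log2 fold changes are -1.52 at 4 h and 0.59 at 24 h. The 24 h rise is given on the deposited scale only. Scaling to reads in listed genes lowers 24 h levels against 0 h (median of all genes -0.37), and the rise depends on that choice. The 16 h rise of 0.15 (adjusted p = 0.0238) rested on single libraries: it did not pass without 0 h replicate 3 (0.12), without 0 h replicate 4 (0.11), without 16 h replicate 1 (0.13) or without 16 h replicate 4 (0.14), and it was -0.02 when scaled to reads in listed genes.

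The effector gene Bax had the highest mean of the 10 genes at 0 h. It had 226, 238, 225 and 236 RPKM at 4 h, against 209.8, 203, 188 and 201 RPKM at 0 h, a log2 difference of 0.21 (SE 0.10) that did not pass (adjusted p = 0.0657). At 16 h it had 311, 345, 321 and 275 RPKM and the rise of 0.64 on the deposited scale passed (adjusted p = 2.18e-06). The size of this rise depends on the scale and on the length trend. Scaling to reads in listed genes put the median of all genes at 16 h at -0.30. Length slopes ran from -0.11 to 0.0050 at 16 h, against 0.098 to 0.15 at 0 h. At 24 h it had 249, 243, 216 and 357 RPKM, the highest again in replicate 4, with a log2 rise of 0.38 (adjusted p = 0.00147) that was -0.15 with the length trend removed and -0.10 when scaled to reads in listed genes. The Bax differences at 4 h and 8 h also changed sign, to -0.10 and -0.15 with the length trend removed and to -0.32 and -0.27 with that scaling, so no direction is given for them.

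Bak1, the other effector, had 79.2, 74.4, 73.8 and 76.6 RPKM at 4 h, against 46.6, 45.1, 43.4 and 44.0 RPKM at 0 h. The groups did not overlap, and Bak1 rose by 0.75 log2 units at 4 h (SE 0.07, adjusted p = 6.75e-12) and by 0.89 at 8 h. It was lower at 24 h, with 56.9, 49.7, 58.3 and 64.1 RPKM, 0.34 above 0 h (adjusted p = 3.17e-05) but -0.13 when scaled to reads in listed genes, and it fell by 0.41 from its 4 h level (adjusted p = 1.66e-06).

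Both BH3-only genes were lower early. Pmaip1 had 1.05, 0.818, 1.11 and 0.936 RPKM at 4 h, against 3.13, 3.64, 3.17 and 3.67 RPKM at 0 h, and fell by 1.15 log2 units (SE 0.08, adjusted p = 3.06e-14). It was then 2.05 to 2.49 RPKM at 8 h and 2.998 to 3.77 RPKM at 16 h, which overlaps with 0 h. At 24 h the difference from 0 h was -0.13 (adjusted p = 0.142); without 24 h replicate 4 and LA 24 h replicate 1 it was -0.22 (adjusted p = 0.00836). Bcl2l11 reached its low point later. It had 4.87, 4.51, 4.34 and 4.53 RPKM at 4 h and 2.14, 2.23, 2.04 and 1.92 RPKM at 8 h, against 5.10, 6.07, 6.91 and 6.73 RPKM at 0 h. Every stimulated library was below every 0 h library. It fell by 0.37 log2 units at 4 h (adjusted p = 4.19e-05), by 1.22 at 8 h (SE 0.07, adjusted p = 7.98e-16) and by 0.60 at 24 h (adjusted p = 1.90e-08).

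**Figure D2:**
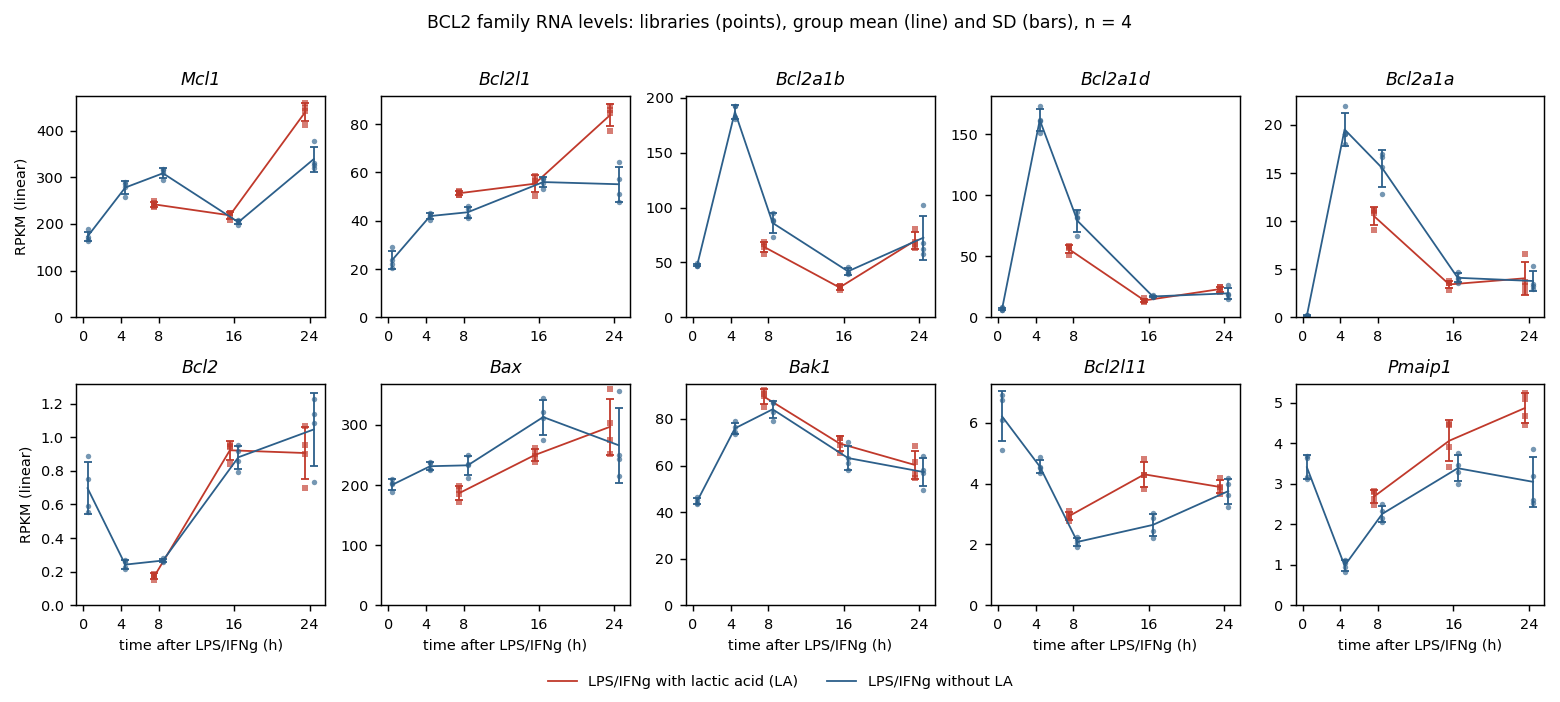
RPKM (linear axes from 0) of the 10 genes by hours after LPS/IFNg, with LA (squares) and without (circles); points are libraries, lines join group means and bars are SD, n = 4. The A1 genes peaked at 4 h, Pmaip1 had its lowest level there and Bcl2l11 at 8 h, and Mcl1, Bcl2l1 and Pmaip1 were higher with LA at 24 h.

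Of the 10 genes, the 4 h cells had 6 higher and 3 lower than the 0 h cells, a comparison in which 42.5% of all genes tested were called higher and 42.7% lower. At 8 h it was again 6 higher and 3 lower (40.7% and 42.1% of all genes), at 16 h 7 higher and 1 lower (39.9% and 36.9%), and at 24 h 8 higher and 1 lower (39.9% and 37.3%). Between 24 h and 4 h, 4 were higher and 5 lower (42.3% and 41.3%). Most genes of the table changed, so a share of calls near these is no feature of the family. The counts of higher genes at 16 h and 24 h hold for the deposited scale only. Scaled to reads in listed genes, Bcl2 and Mcl1 turned sign at 16 h, and Bak1 and Bax at 24 h. With the length trend removed, Bax turned sign at 24 h and the Bcl2a1b rise was lost. On the deposited scale the median log2 fold change of the 10 was 0.71 at 4 h and 0.47 at 24 h, against -0.0017 and 0.016 for all genes.

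In order of level, RPKM being per length, Bax (mean 201 RPKM) and Mcl1 (173 RPKM) led at 0 h with overlapping ranges, followed by Bcl2a1b and Bak1, whose ranges also overlapped (47.7 and 44.8 RPKM). Then came Bcl2l1 (23.8 RPKM), Bcl2a1d and Bcl2l11, which overlapped (6.81 and 6.204 RPKM), Pmaip1 (3.40 RPKM), Bcl2 (0.697 RPKM) and Bcl2a1a (0.189 RPKM). At 4 h the order was Mcl1 (278 RPKM), Bax (231 RPKM), Bcl2a1b (187 RPKM), Bcl2a1d (162 RPKM), Bak1 (76.0 RPKM), Bcl2l1 (41.9 RPKM), Bcl2a1a (19.5 RPKM), Bcl2l11 (4.56 RPKM), Pmaip1 (0.980 RPKM) and Bcl2 (0.243 RPKM), and no neighbours overlapped. At 24 h Mcl1 (339 RPKM) and Bax (266 RPKM) overlapped, as did Bcl2a1b, Bak1 and Bcl2l1 in turn (72.6, 57.2 and 55.1 RPKM).

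Lactic acid was tested at each time against LPS/IFNg alone. At 24 h with LA, Bcl2l1 had 84.4, 85.9, 87.7 and 77.1 RPKM, against 57.3, 48.0, 50.9 and 64.3 RPKM without LA. Mcl1 had 441, 448, 412 and 459 RPKM with LA, against 327, 331, 319 and 378 RPKM without. Pmaip1 had 4.45, 5.24, 4.66 and 5.09 RPKM with LA, against 3.18, 2.53, 2.61 and 3.86 RPKM without. These 3 pairs of groups did not overlap, as was so for 26.2% of all genes tested; they are 2 guardians and the BH3-only gene Pmaip1. The log2 rises were 0.60 for Bcl2l1 (SE 0.08, limma adjusted p = 3.49e-07), 0.38 for Mcl1 (SE 0.06, adjusted p = 2.17e-06) and 0.54 for Pmaip1 (SE 0.08, adjusted p = 3.34e-06). They were 0.67, 0.43 and 0.67 without the pair of libraries that stood apart, 0.63, 0.39 and 0.53 with the length trend removed, and 0.39, 0.16 and 0.37 when scaled to reads in listed genes, and all passed.

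On the deposited scale these were the 3 genes called higher with LA at 24 h and 0 were called lower, also at an unadjusted p under 0.05, where 25.5% of all genes tested were called higher and 21.7% lower by limma. Scaling to reads in listed genes moved the median of all genes by -0.15, and further members were then called. The absence of lower calls therefore holds only for the deposited scale with all libraries. On that scale Bcl2 was called lower without 24 h replicate 4. Of the other 7 genes, Bcl2a1d (0.25), Bax (0.17) and Bcl2 (-0.10) had an unadjusted p between 0.0329 and 0.111. Without 24 h replicate 4 and LA 24 h replicate 1 they passed, at 0.36 for Bcl2a1d (adjusted p = 0.00513), 0.22 for Bax (adjusted p = 0.0147) and -0.12 for Bcl2 (adjusted p = 0.0448). With LA, Bax had 359, 275, 303 and 251 RPKM at 24 h, against 249, 243, 216 and 357 RPKM without, and the highest value of each group is the library that stood apart. Their length slope moved with these values and its part in them was not tested. The macrophage marker list summed to 37859 to 54164 RPKM with LA, against 36250 to 48505 RPKM without. Most of this was Lyz2, with 33342 to 48560 RPKM with LA and 32383 to 44877 RPKM without. Other markers of the list differed in direction: Cd14 had 1115 to 2073 RPKM with LA, against 514 to 828 RPKM without. Itgam had 81.8 to 97.1 RPKM with LA, against 115 to 152 RPKM without.

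At 8 h, 4 h after LA was added, 2 genes were higher and 5 lower with LA, where 32.1% of all genes were called higher and 36.0% lower. Mcl1 had 239, 244, 236 and 248 RPKM with LA, against 308, 293, 318 and 315 RPKM without, and fell by 0.35 log2 units (SE 0.06, adjusted p = 2.99e-06). Bcl2l11 had 2.78, 2.91, 3.11 and 2.93 RPKM with LA, against 2.14, 2.23, 2.04 and 1.92 RPKM without, a rise of 0.35 (adjusted p = 0.000151), and Bcl2l1 rose by 0.24 (adjusted p = 0.00931). Bcl2a1a, Bcl2a1b, Bcl2a1d and Bax were lower by 0.51, 0.41, 0.49 and 0.32 (adjusted p between 0.000287 and 0.00825). Each of these 7 pairs of groups did not overlap, as was so for 70.1% of all genes tested.

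Removing the length trend of each library ended 6 of these 7 calls at 8 h. The differences became -0.11 for Bcl2a1a, -0.01 for Bcl2a1b, -0.09 for Bcl2a1d, 0.08 for Bax, 0.14 for Bcl2l11 and 0.16 for Bcl2l1, with adjusted p between 0.0643 and 0.902, whereas Mcl1 kept -0.34 (adjusted p = 1.65e-06). The same step called 3 other genes: Bcl2 at -0.35, Bak1 at 0.23 and Pmaip1 at 0.29. Bcl2 itself had 0.185, 0.152, 0.183 and 0.179 RPKM with LA at 8 h, against 0.268, 0.280, 0.262 and 0.256 RPKM without, groups that did not overlap. Its difference was -0.11 on the main scale (adjusted p = 0.111) and -0.42 with a pseudocount of 0.1 (adjusted p = 0.00426).

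At 16 h with LA, 2 genes were higher and 3 lower, where 30.2% of all genes were called higher and 31.0% lower. Bcl2l11 had 4.82, 4.29, 4.27 and 3.83 RPKM with LA, against 2.87, 2.22, 2.45 and 3.03 RPKM without, and rose by 0.54 (SE 0.07, adjusted p = 5.52e-07; 0.42 with the length trend removed). Bcl2a1b fell by 0.61 (adjusted p = 2.10e-05; -0.38 with the length trend removed), with 24.8, 28.9, 26.4 and 28.6 RPKM with LA, against 40.6, 46.0, 41.7 and 39.2 RPKM without. Bax was lower by 0.32 (adjusted p = 0.00882) and Bcl2a1d by 0.29 (adjusted p = 0.0235), and removing the length trend ended both calls (-0.10 and -0.07). Bcl2a1d also did not pass without 16 h replicate 2 (-0.27) or without LA 16 h replicate 1 (-0.24). Pmaip1, 3.40 to 4.47 RPKM with LA against 2.998 to 3.77 RPKM without, was higher by 0.20 (adjusted p = 0.0317), a call lost without any of 16 h replicates 1 and 3 or LA 16 h replicates 1 and 3 (0.16, 0.20, 0.17 and 0.17).

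**Figure D3:**
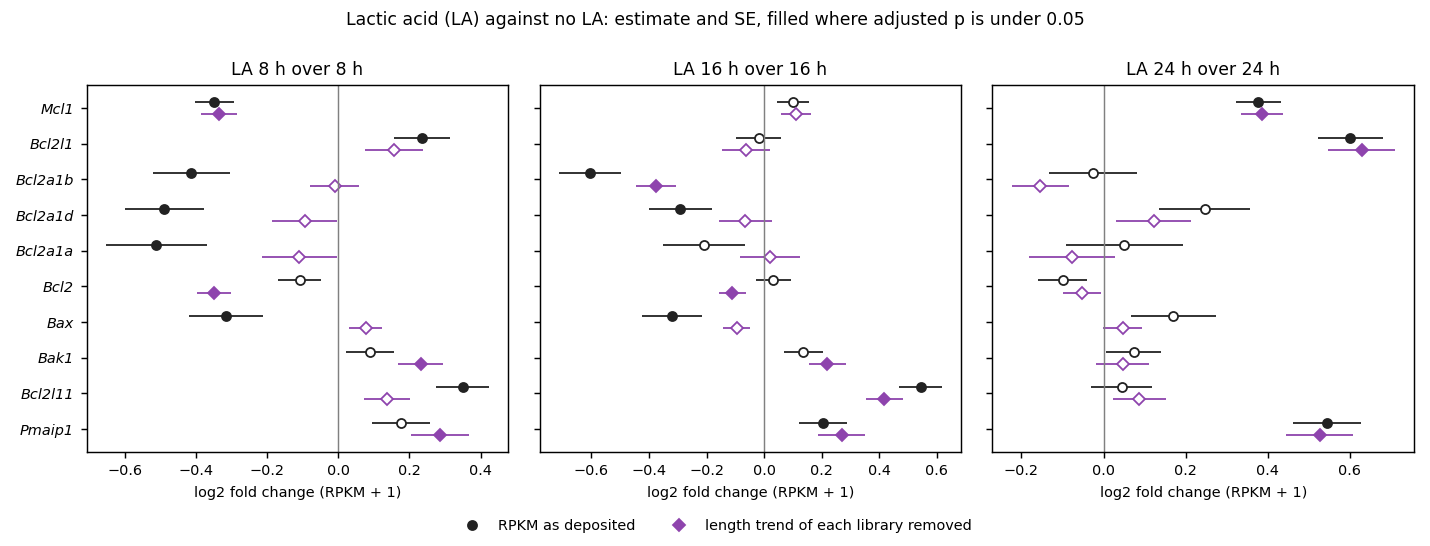
Log2 fold change of LA over no LA (x axes, log2 of RPKM + 1, estimate and SE) for the 10 genes at 8 h, 16 h and 24 h, from the deposited RPKM (circles) and with each library's length trend removed (diamonds), filled where the limma adjusted p is under 0.05. Mcl1 was -0.35 and -0.34 at 8 h and 0.38 and 0.39 at 24 h, whereas the A1 genes moved towards 0 at 8 h once the length trend was removed.

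Whether the LA difference itself changed from 8 h to 24 h was tested as an interaction. It was higher at 24 h for 7 genes and lower for 1, where 32.7% of all genes were called higher and 29.7% lower. The clearest was Mcl1, with a change of 0.73 log2 units (SE 0.08, limma adjusted p = 1.25e-08) that was 0.72 with the length trend removed and 0.78 without the 2 libraries that stood apart. Bcl2l1 changed by 0.37 (SE 0.11, adjusted p = 0.00549) and by 0.47 with the length trend removed (adjusted p = 0.000977). When scaled to reads in listed genes, the median interaction of all genes was -0.20, against 0.022 on the deposited scale. The size of the Bcl2l1 change depends on that choice, and its value with that scaling is not given here. The changes of Bcl2a1d (0.74), Bcl2a1a (0.56), Bax (0.49), Bcl2a1b (0.39), Pmaip1 (0.37) and Bcl2l11 (-0.31) lost their calls once the length trend was removed, at 0.22, 0.03, -0.03, -0.14, 0.24 and -0.05, while Bcl2 gained one at 0.30 (adjusted p = 0.000355).

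The chromatin lists were made from 1 library per mark and state, so their differences carry no test. Per the authors' read table, 21006731 (M1 H3K18la), 21765076 (M0 H3K18la), 32948615 (M1 H3K18ac) and 36576826 (M0 H3K18ac) reads mapped to mouse. The lists hold 16139, 21885, 42237 and 41493 peaks in that order, and fold enrichments are the authors' values for each peak. Of the 9 genes with an annotated start in the RefSeq promoter table, 5 had a peak within 2500 bases of a start for M1 H3K18la, 6 for M0 H3K18la, 6 for M1 H3K18ac and 6 for M0 H3K18ac. Over all 8770 listed genes with such a start, the shares were 73.6%, 90.1%, 90.0% and 92.8%. The genes without a peak in any list were the 3 A1 genes, and Bcl2 had none for M1 H3K18la.

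No list held a peak within 20000 bases of Bcl2a1a or Bcl2a1b, which was so for 190 of 10827 listed genes (1.75%), and for 42 of the 5125 of these that reached 10 RPKM in a library (0.820%). The nearest peak of Bcl2a1d lay 13366 to 13447 bases beyond the end of the gene in all 4 lists. Near-identical copies make reads hard to place uniquely; how reads with several matches were handled is not given in the sources used here, and its part in these empty stretches was not tested.

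Of the peaks lying over a member's start, that of Mcl1 was the longest in each of the 4 lists, while the M0 lists held longer peaks inside Bcl2l1, of 10359 bases for H3K18la and 47052 bases for H3K18ac. The Mcl1 start is shown because it held the only motif match among the members' windows (chr3:95658471-95658770, plus strand, GRCm38.p6), with the kB-type match in capitals, beginning at the first base of the transcript.
Mcl1: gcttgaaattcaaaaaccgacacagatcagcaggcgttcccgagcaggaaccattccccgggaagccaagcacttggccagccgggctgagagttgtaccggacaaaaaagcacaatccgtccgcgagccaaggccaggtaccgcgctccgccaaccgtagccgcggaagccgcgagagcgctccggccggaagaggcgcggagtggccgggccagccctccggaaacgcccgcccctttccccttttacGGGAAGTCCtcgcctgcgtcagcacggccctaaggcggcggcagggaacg
The M1 H3K18la peak over this start spanned 21778 bases at 12.5-fold enrichment (chr3:95648260-95670037), against 6895 bases at 12.8-fold in M0 cells (chr3:95657482-95664376). The M1 H3K18ac peak spanned 54223 bases at 9.45-fold, against 26997 bases at 6.79-fold in M0 cells. Within 20000 bases of the gene, H3K18la peaks covered 29508 bases in M1 cells and 22238 bases in M0 cells. H3K18ac peaks reaching into that stretch held 54817 bases in M1 cells and 41826 bases in M0 cells, where they were 3 separate peaks. In both marks the M1 peak over the start was the longer one, and Mcl1 RNA was also higher at 24 h of M1 stimulation than at 0 h. A link between peak length and RNA was not tested.

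Bcl2 differed from the others in its H3K18la peak. Its window is shown for its CG pairs, 44 of them in capitals, against 33 in the Mcl1 window, 27 and 38 in the 2 Bcl2l11 windows, 1 to 22 in the 3 Bcl2l1 windows, 19 for Bax, 11 for Bak1, 3 or 4 in the A1 windows and a median of 7 over all promoters of the table (chr1:106714241-106714540, minus strand, GRCm38.p6).
Bcl2: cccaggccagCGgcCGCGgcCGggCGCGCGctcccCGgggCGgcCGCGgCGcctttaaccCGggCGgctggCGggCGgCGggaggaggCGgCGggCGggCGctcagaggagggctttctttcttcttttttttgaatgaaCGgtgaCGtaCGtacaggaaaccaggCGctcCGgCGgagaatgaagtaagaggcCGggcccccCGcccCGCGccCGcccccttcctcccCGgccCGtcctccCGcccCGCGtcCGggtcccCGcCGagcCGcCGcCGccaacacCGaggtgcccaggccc
M1 cells had no H3K18la peak within 2500 bases of this start, against a 1719-base peak over it at 7.32-fold in M0 cells (chr1:106713539-106715257, -log10 q 17.9). H3K18ac peaks covered it in both states, 5409 bases at 3.35-fold in M1 cells and 2484 bases at 5.56-fold in M0 cells. Bcl2 RNA at 24 h was not lower than at 0 h.

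Apart from the A1 genes, which had no peak near a start, the other members had peaks of both marks in both states. The H3K18la peak nearest the Bax start was 1485 bases at 5.95-fold in M1 cells, ending 55 bases short of the start, against 1910 bases at 12.7-fold over it in M0 cells. For Bak1 the M1 and M0 H3K18la peaks over the start had 10.8-fold and 9.05-fold enrichment. The Bcl2l1 peaks had 8.09-fold in M1 cells, over 1 of its 3 annotated starts, and 11.9-fold in M0 cells, over all 3. The Bcl2l11 peaks had 3.27-fold in M1 cells and 6.04-fold in M0 cells; the M1 peak had a -log10 q of 2.72 and is lost at a minimum of 5. Pmaip1 had 1 H3K18la peak touching the gene in each state, at 4.50-fold in M1 cells and 5.45-fold in M0 cells, and 1 H3K18ac peak, at 5.28-fold in M1 cells and 5.89-fold in M0 cells. Median fold enrichment over all peaks was 4.16 in the M1 H3K18la list, against 5.41 in the M0 H3K18la list, so peak folds are not on a common scale.

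**Figure D4:**
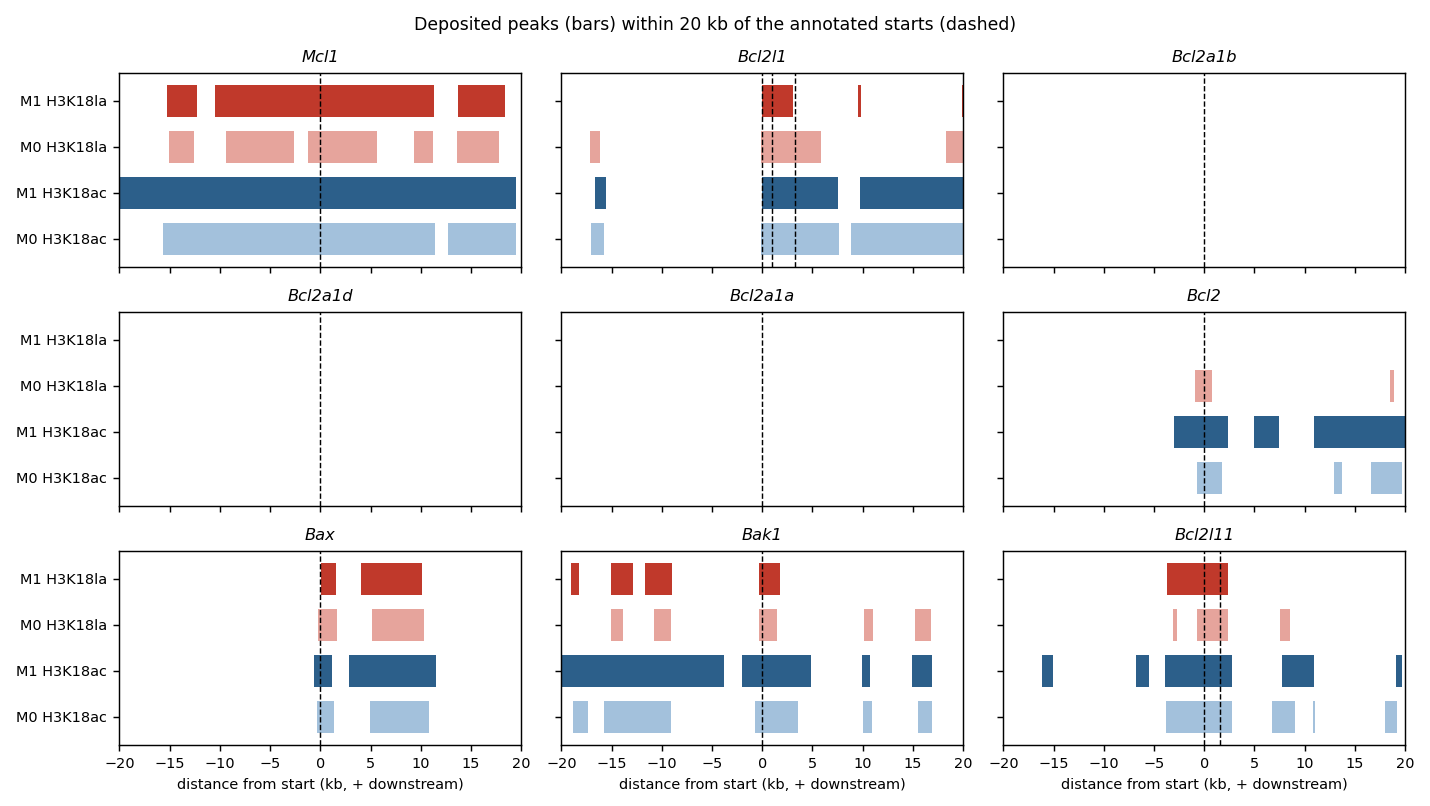
Deposited peaks (bars) by distance in kb from the annotated start (dashed; positive is downstream, and the start farthest upstream is at 0 where there are several) for the 9 genes with a start, with rows for M1 H3K18la, M0 H3K18la, M1 H3K18ac and M0 H3K18ac. Mcl1 had the longest peaks over a start, Bcl2l1 had long H3K18ac peaks inside the gene, Bcl2 lacked an M1 H3K18la peak at its start, and no peak was drawn for the 3 A1 genes.

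Other genes of the apoptosis pathway were counted from lists that name its arms. The counts are to be read beside the shares of all genes tested, which were 42.5% higher and 42.7% lower for the 4 h cells. For the 24 h cells the shares were 39.9% and 37.3%, and LA at 24 h had 25.5% and 21.7%. Scaling to reads in listed genes lowers these differences for all genes, and higher genes then made up 26.9% (4 h), 20.4% (24 h) and 18.3% (LA 24 h) of all genes called, so the counts with that scaling are given as well. Of 11 listed genes of other BCL2 family members, the 4 h cells had 3 higher and 7 lower than the 0 h cells (median log2 -0.28, against -0.0017 for all genes); scaled to reads in listed genes it was 0 higher and 8 lower (median -0.73, against -0.43 for all genes). The largest falls were of pro-apoptotic genes. Bmf fell by 2.13 log2 units to 0.0359 ± 0.0081 RPKM at 4 h, against 3.56 ± 0.595 RPKM at 0 h (SD, n = 4 each), Bbc3 (PUMA) fell by 1.38 and Bnip3l, which encodes a mitophagy receptor, fell by 1.22 (limma adjusted p at most 1.40e-11). At 24 h 3 were higher and 3 lower (2 and 8 with that scaling), and Bnip3 rose by 1.22, Bid fell by 0.86 and Bmf fell by 0.66. With LA at 24 h, 7 were higher and 2 lower (median 0.24), among them Bbc3 by 0.67, Bnip3 by 0.49 and Bik by 0.47; scaled to reads in listed genes, 3 were higher and 3 lower.

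Among 12 genes of the apoptosome and caspases, 6 were higher and 4 lower at 4 h (median 0.20), and 3 and 6 when scaled to reads in listed genes (median -0.26); the unscaled shares are close to those of all genes. Cycs, which encodes cytochrome c, rose by 2.44, and the caspase gene Casp8 rose by 1.51. At 24 h 7 were higher and 4 lower (3 and 6 with that scaling); Cycs and Casp8 were still up by 1.57 and 0.65 and Casp2 was down by 0.94. With LA at 24 h 2 were higher and 2 lower (0 and 7 with that scaling), with differences of 0.21 for Cycs, -0.21 for Diablo and 0.18 for Aifm1; the calls of Cycs and Aifm1 did not hold when scaled to reads in listed genes (0.0086 and -0.0045), nor that of Diablo after removing the length trend (-0.17, adjusted p = 0.0536).

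Of 7 inhibitor of apoptosis genes, limma called 6 higher and 0 lower at 4 h (median 0.49), with 0 lower at an unadjusted p under 0.05 as well, and 3 higher and 1 lower when scaled to reads in listed genes. Birc3 and Birc2, which encode the cIAP ubiquitin ligases, rose by 2.46 and 1.30 and Naip2, a sensor of bacterial proteins, by 0.74. At 24 h 4 were higher and 1 lower (2 and 3 with that scaling), with Birc3 at 1.20, Naip2 at 0.83 and Birc2 at 0.49, the last not passing when scaled to reads in listed genes (0.11). With LA at 24 h limma called 2 higher and 0 lower (0 lower at an unadjusted p under 0.05), Birc3 by 0.55 and Naip2 by 0.32; scaled to reads in listed genes Naip2 did not pass (0.12), and 1 of the 7 was called higher and 4 lower.

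Of 13 listed genes of death receptor signalling, 9 were higher and 2 lower at 4 h (median 2.04), and 8 and 5 when scaled to reads in listed genes (median 1.59). The death ligand gene Tnfsf10 (TRAIL) rose by 5.17 to 62.8 ± 10.2 RPKM, against 0.752 ± 0.126 RPKM at 0 h (SD, n = 4 each), Traf1 by 4.73 and the TNF receptor gene Tnfrsf1b by 3.21. At 24 h 10 were higher and 2 lower (6 and 5 with that scaling), led by Traf1 (2.14), Fas (1.68) and the necroptosis effector gene Mlkl (1.66). With LA at 24 h 7 were higher and 2 lower (3 and 3 with that scaling), with Traf1 at 0.64, Fas at 0.53 and Tnfrsf1b at 0.43, the last not passing when scaled to reads in listed genes (0.22).

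Of 8 genes of the p53 arm, 4 were higher and 3 lower at 4 h (median 0.11), shares close to those of all genes, and 3 and 4 when scaled to reads in listed genes (median -0.29). Trp53inp1 fell by 3.21, while the cell cycle inhibitor gene Cdkn1a and Mdm2, whose product degrades p53, rose by 2.39 and 1.49. At 24 h 4 were higher and 2 lower (3 and 4 with that scaling), and the same 3 genes stood at -1.59, 1.59 and 1.45. With LA at 24 h 2 were higher and 4 lower (1 and 6 with that scaling), with Mdm2 up by 0.74 and Trp53inp1 and Aen down by 0.38 and 0.31.

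By the root mean square difference of centred profiles over the 8 group means, on the log2(RPKM + 1) scale, the genes closest to Mcl1 were Psmd8 (0.069) and Tmem11 (0.15), to Bcl2l1 Btg3 and Rngtt (0.13 each), to Bcl2l11 Bcor and Nup107 (0.13 each), and to Pmaip1 Wipi1 (0.11) and Sec22c (0.12). The profile of Bcl2a1a was closest to Casp4 (0.20) and Car13 (0.21), that of Bcl2a1b to Anxa1 (0.23) and the further A1 copy Bcl2a1c (0.32), and that of Bcl2a1d to Fgl2 (0.29) and Pde4b (0.38). Bcl2, Bax and Bak1 spanned under 1 log2 unit over the groups and no neighbours were sought.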

How the data were processed

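RNA was measured in 32 libraries and chromatin in 6. RPKM values were deposited by the authors, who used an effective size per library; the same deposited table holds the authors' log2 fold changes over 0 h, log2 mean expression, p-value and FDR. HISAT2 2.1.0, featureCounts 1.5.0-p1, edgeR, Bowtie2 2.2.6, SAMtools 0.1.19 and MACS2 2.2.1 are among the tools in the submitters' processing notes, with builds mm10 and GRCm38. Broad peaks were deposited by the authors with a fold enrichment (a ratio), a score, -log10 p and -log10 q per peak, and the authors' deposited read counts of the chromatin libraries were copied. The RNA kit marks strand, per the labels' protocols.

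Log2(RPKM + 1) was fitted with limma 3.58.1 (R 4.3.3, trend) over 8 groups with 24 residual degrees of freedom, on genes with at least 1 RPKM in 4 or more libraries; adjusted p is Benjamini-Hochberg with a threshold of 0.05. The fit was tested on simulated data. Reads and gene lengths were estimated from RPKM steps and the deposited mean expression: of 59968 low values of 1874 genes, 90.8% came out within 0.05 of a whole read once each gene's length was fitted to them, and for 883 genes selected for clear steps 100% came out within 0.01. No 2 libraries agreed within sampling noise. Deviations of same-numbered libraries had a median correlation of 0.025 over 112 pairs, against -0.011 for pairs with other numbers. The 112 values ran from -0.64 to 0.54, and 41 were over 0.1, so this median cannot exclude pairing between particular groups. The labels do not say that replicate numbers pair libraries, and they were not used as pairs. Peaks were compared at annotated starts (2500 bases either side). Promoter windows are RefSeq's; copies were aligned with Biopython 1.88. Genes named outside the 10 are up to 3 called genes of each list with the largest change in 4 h over 0 h, 24 h over 0 h and LA 24 h over 24 h, and profile neighbours; 1 gene that this rule names is not reported here. The members and lists were chosen with earlier results of these data known. Alternatives were the pseudocount, filter, scaling, length trend, groups fitted, replicate block, variance trend and leaving out each library; leaving out 2 libraries together was added after seeing the data.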

Additional observations from a re-analysis of the deposited data

Results flagged for a closer look

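Within groups of 4 libraries, 2 of 80 had a lowest library far from the other 3, where chance flags about 1 in 20 groups. Bcl2 had 0.840 RPKM in LA 16 h replicate 2, against 0.943 to 0.961 RPKM in the other 3 libraries. Bcl2a1a had 9.12 RPKM in LA 8 h replicate 3, against 10.9 to 11.2 RPKM in the other 3.

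The LA difference at 24 h minus that at 8 h passed limma's interaction test for 8 of the 10 genes, where 32.7% of all genes tested were called higher and 29.7% lower, with a log2 change of 0.73 for Mcl1, 0.74 for Bcl2a1d, 0.56 for Bcl2a1a, 0.49 for Bax, 0.39 for Bcl2a1b, 0.37 for Bcl2l1, 0.37 for Pmaip1 and -0.31 for Bcl2l11. Of these, Mcl1 and Bcl2l1 also passed with each library's length trend removed. Scaling to reads in listed genes lowered the interaction for all genes (median -0.20), and the Bcl2l1 value with that scaling is not given here. The Bcl2a1b value did not pass when any of 5 libraries was left out (8 h replicate 3, 24 h replicates 1 and 3, LA 8 h replicate 3, LA 24 h replicate 1), nor that of Bcl2a1a without LA 24 h replicate 1 (adjusted p = 0.0593).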

How the results depend on the processing

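The counts here are of genes called in either direction, so a turn of sign does not show in them. Counts of the 10 genes called in the 4 comparisons over 0 h and in 24 h over 4 h stayed within 1.5 times under every alternative run. With LA at 8 h the count was 7 and became 4 with the length trend removed. With LA at 16 h it was 5, and 3 to 6 when single libraries were left out (3 without LA 16 h replicate 1). With LA at 24 h it was 3, became 5 when scaled to reads in listed genes, 3 to 6 when single libraries were left out (6 without 24 h replicate 4), and 6 without 24 h replicate 4 and LA 24 h replicate 1. For the interaction it was 8, and 4 with that scaling, 3 with the length trend removed, and 6 to 8 when single libraries were left out. Peak counts at starts stayed within 1.5 times. With a replicate block the counts were 9, 9, 8, 9 and 9 over time, 7, 5 and 3 with LA, and 8 for the interaction, and no count changed.

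Signs turned when scaled to reads in listed genes for Bcl2 (-0.017) and Mcl1 (-0.15) at 16 h, Bak1 at 24 h (-0.13), and Bax at 4 h (-0.32), 8 h (-0.27) and 24 h (-0.10). With the length trend removed they turned for Bax at 4 h (-0.10), 8 h (-0.15), 24 h (-0.15), with LA at 8 h (0.077) and in the interaction (-0.030), for Bcl2 with LA at 16 h (-0.11), and for Bcl2a1b in the interaction (-0.14). The scaling assumes equal reads per library and moves all genes by its construction; otherwise the cause was not tested. Depth was ample for all but Bcl2a1a at 0 h, with 9 to 19 reads.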
